A study of Mus musculus with 28 samples.

Results

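Hox cluster genes were followed across the mouse germ line. The members were all genes whose symbol, found through the RefSeq accession of the array probe, is Hoxa, Hoxb, Hoxc or Hoxd followed by a number. The text describes 34 of them, among 38726 genes on the array. The clusters lie on chromosomes 6 (Hoxa, 9 members described), 11 (Hoxb, 9), 15 (Hoxc, 8) and 2 (Hoxd, 8). Hoxa5, Hoxb3, Hoxc11 and Hoxd3 had no matched probe and were not analysed here. Hoxa3 had 2 probes, of which the brighter was used.

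Hox genes encode homeodomain transcription factors that give cells of the embryo their position along the head-to-tail axis. Within a cluster, genes at the 3′ end (low numbers) are switched on earlier and further forward than genes at the 5′ end (high numbers). Retinoic acid, Wnt and FGF signals and the Cdx and Trithorax proteins activate the clusters, and Polycomb complexes keep them silent in pluripotent cells. Hox proteins bind DNA together with TALE homeodomain cofactors of the Pbx, Meis and Pknox families. Primordial germ cells (PGC), from which eggs and sperm later descend, are known for holding the somatic Hox programme down as they form.

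Each of 14 groups had 2 arrays. PGC of females and males were collected at embryonic day 10.5, 13.5 or 17.5 (written E10.5, E13.5 and E17.5 hereafter), from the cross BDF1 x TgN(deGFP)18Imeg. Oogonia and spermatogonia, germ cells of unstated age, came from BDF1 x Tg(Mvh-Venus)1Rbrc, and both crosses are named for a fluorescent reporter transgene. EG cells, pluripotent lines grown from PGC, were female and male, of Rb(X.2)2Ad X 129/Sv origin, and their labels name PGC of 12.5 days post coitum as the source. ES cells were the female line no5 (129/Sv) and the male line TMA5 (a hybrid of TgN (deGFP)20Imeg and MSM/Ms), GS cells (cultured spermatogonial stem cells) were male DBA/2, and adult testis was C57BL/6J. No treatment is given for any group, and apart from the PGC groups, and oogonia and spermatogonia between them, strain changed along with cell type. The labels give neither the sorting of cells, the use of feeder cells, nor whether the 2 arrays of a group were separate animals or cultures, so p-values cover only how far these arrays spread, and that spread may be technical.

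The promoters shown here belong to the members that passed the test in at least 3 of the 12 comparisons below and have an entry in the RefSeq promoter table (GRCm38.p6), which was the case for 3 of 7 such members. Each line gives the 250 bases before the transcription start, 5′ to 3′, and capitals mark TGATNNAT, a site bound by Hox proteins with Pbx, or AGGTCA, the single-copy core of nuclear receptor sites, retinoic acid receptors included, searched on both strands.
Hoxb1 (chr11:96365508-96365757, + strand): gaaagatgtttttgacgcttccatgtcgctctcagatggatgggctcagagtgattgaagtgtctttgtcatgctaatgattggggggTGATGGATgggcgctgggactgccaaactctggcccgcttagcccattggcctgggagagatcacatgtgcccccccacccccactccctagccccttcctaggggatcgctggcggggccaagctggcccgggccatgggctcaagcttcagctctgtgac
Hoxd8 (chr2:74704365-74704614, + strand): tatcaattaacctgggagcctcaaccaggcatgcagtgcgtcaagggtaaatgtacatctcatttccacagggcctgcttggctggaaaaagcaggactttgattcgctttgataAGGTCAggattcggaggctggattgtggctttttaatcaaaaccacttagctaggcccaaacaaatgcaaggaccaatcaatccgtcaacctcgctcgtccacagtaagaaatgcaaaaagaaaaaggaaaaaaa
Hoxa7 (chr6:52218574-52218823, - strand): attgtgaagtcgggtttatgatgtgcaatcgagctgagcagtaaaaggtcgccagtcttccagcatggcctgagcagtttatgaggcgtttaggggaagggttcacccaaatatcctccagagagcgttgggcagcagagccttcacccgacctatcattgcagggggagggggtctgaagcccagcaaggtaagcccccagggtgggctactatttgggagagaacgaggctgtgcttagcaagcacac
TGATNNAT stood once in the Hoxb1 window, at positions -162 to -155 from the start, on the + strand. AGGTCA stood once in the Hoxd8 window, at -135 to -130, on the + strand. Neither motif was found in the Hoxa7 window, which says only that these letters are not there. Over the 32851 promoters of the table, 7.7% held TGATNNAT and 14% held AGGTCA in the same window. Among the 24 promoters of 22 Hox genes, the counts were 4 and 6. A match is a run of letters and not a binding site. The GC content was 59.2% for Hoxb1, 44.4% for Hoxd8 and 54.8% for Hoxa7, beside a median of 52.4% over all promoters.

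Levels are log2 values of the scanner's processed signal, set so that 0 is the 75th percentile of the probes detected on every array, and they are compared between groups for the same probe, never between probes. A probe is called detected on an array where the scanner marked its signal as well above background. Between 17.8% and 76.7% of probes were detected on an array, and the lowest detected signal lay between -10.72 and -3.58 (highest in E10.5 male replicate 1). Where no array of a side detected a member and every array of the other side did, the difference is given as a lower bound ("at least N-fold"). The groups were checked against 9 germ cell markers (Ddx4, Dazl and others). All 9 were detected on both arrays of 11 groups, and 8 of them in E10.5 females, E10.5 males and testis. The EG and ES groups were among the 11, so detection of these markers does not tell germ cells from pluripotent lines. Markers of other cells were present too. The 12 Sertoli and pregranulosa markers had a summed linear level, relative to the same percentile, of 8.52 and 4.26 on the male arrays at E17.5 and of 0.25 and 0.45 on the female arrays. The 18 fibroblast and stroma markers summed to 38.7 and 6.93 in the GS arrays and to at most 5.72 on any other array. Blood and endothelial markers summed to 16.8 and 2.86 in E17.5 females. These are bulk samples, in which fewer cells of a type and less RNA per cell cannot be told apart.

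Few Hox genes were detected in early PGC, and most were detected in GS cells. In E10.5 females 1 of 34 members was detected on both arrays (Hoxa7), beside 22.5% of all genes, and in E10.5 males 0 of 34, beside 16.9%. The counts were 3 of 34 in E13.5 females (34.8% of all genes), 1 in E13.5 males (26.5%), 4 in females of E17.5 (31.5%) and 11 in males of that stage (39.4%). All 4 members of the E17.5 female set were in the male set. Over all genes, 12184 were detected in E17.5 females, 15258 in E17.5 males and 16124 in at least 1 of them. Most genes of the female set were thus in the male set too. Oogonia had 6 members (43.8% of all genes) and spermatogonia 12 (39.2%). EG cells had 7 in females and 8 in males (52.9% and 54.2%), ES cells 17 in the female line and 1 in the male line (55.6% and 41.4%), GS cells 27 (66.4%) and testis 20 (73.7%). The share of members lay below that of all genes in every group except GS cells. All members have a matched symbol, and many of the other genes do not. Against genes with a matched symbol, the share of members was lower in every group. In GS cells it was 79.4%, beside 81.4% of those genes.

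**Figure D1:**
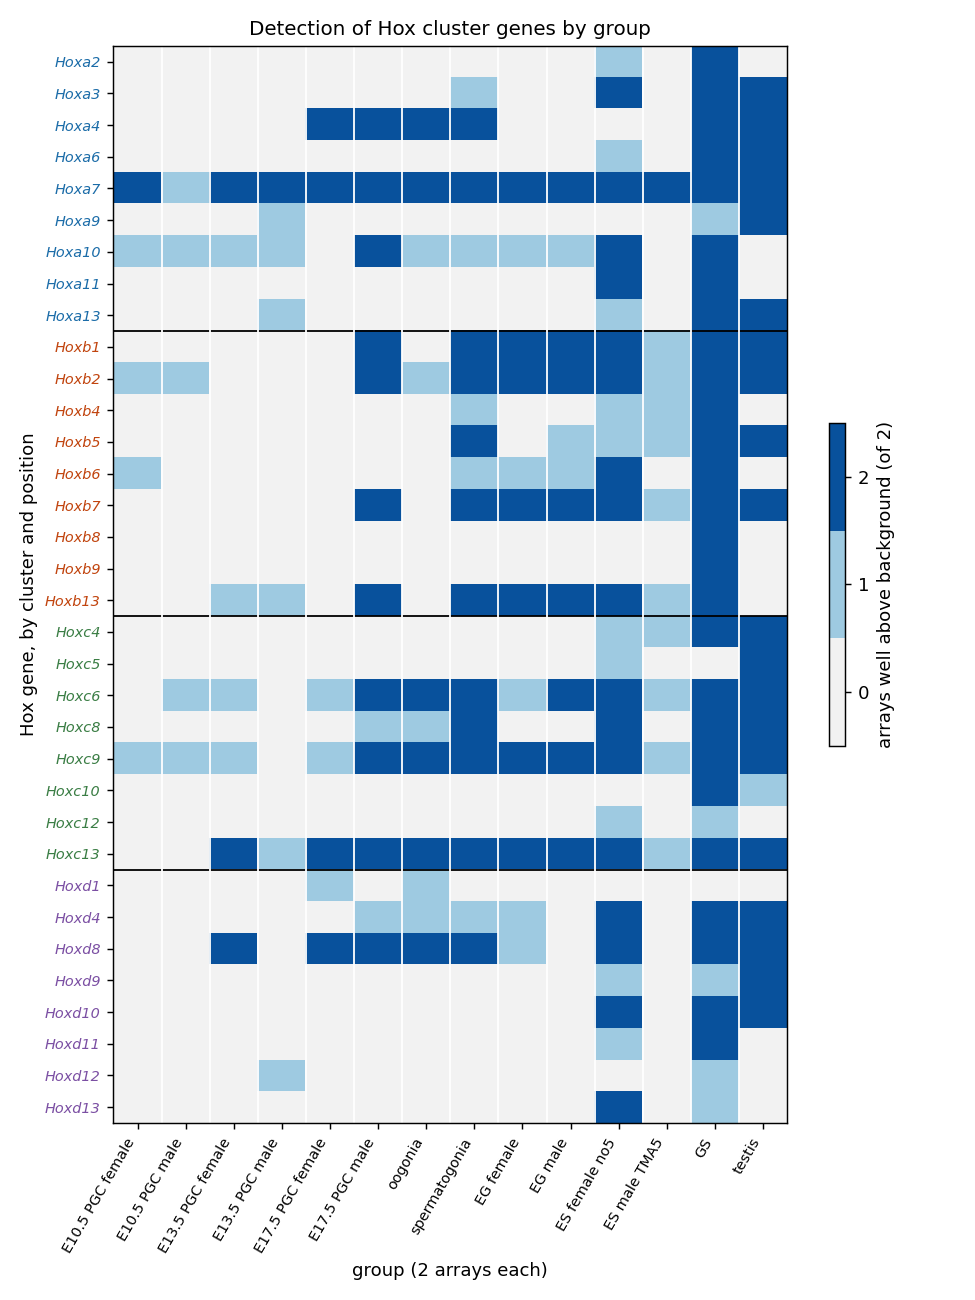
For each Hox gene (rows, ordered by cluster and position, lines between clusters) the colour gives how many of the 2 arrays of each group (columns) were well above background. The column of E10.5 males holds no member detected on both arrays, that of GS holds 27, and Hoxa7 is detected on 27 of 28 arrays.

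Members differed widely in how often they were seen. Hoxa7, a central member of the Hoxa cluster, was detected on 27 of 28 arrays, the exception being E10.5 male replicate 1. Hoxc13, known for its role in hair and nail, followed with 22 arrays, Hoxc9 with 21 and Hoxc6 with 19. In all, 10 members were detected on both arrays of 6 or more groups, 11 of 2 to 4 groups, 10 of 1 group and 3 (Hoxc12, Hoxd1 and Hoxd12) of no group. Of the members detected on both arrays of only 1 group, Hoxa2, Hoxb4, Hoxb8, Hoxb9, Hoxc10 and Hoxd11 were seen in GS cells. Hoxa9, Hoxc5 and Hoxd9 were seen in testis, and Hoxd13 in female ES cells. The lowest detected signal was -9.82 and -10.72 on the GS arrays and -10.08 and -10.13 on the testis arrays. On the spermatogonia arrays it was -6.41 and -7.19. A dim level detected in GS cells or testis could thus be missed in other groups, and these members are not shown to be restricted. By position, GS cells had 8 of 9 anterior (paralog groups 1 to 4), 9 of 10 central (5 to 8) and 10 of 15 posterior members (9 to 13). Spermatogonia had 3, 6 and 3, and testis had 6, 8 and 6. The group with the highest mean level among groups with both arrays detected was GS for 19 members, testis for 7, E17.5 males for 3, spermatogonia for 1 and female ES cells for 1. A member detected in only 1 group counts for that group by definition.

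From E10.5 to E13.5, no member passed the test. Only 3 members (Hoxa7, Hoxc13 and Hoxd8) were detected on both arrays of a group and could be tested. Of all 13892 genes tested, 26.5% were higher and 12.7% lower at E13.5 (limma, adjusted p under 0.05). That split depended on the scaling, with 3685 genes higher and 1771 lower in the main setting against 1969 and 2982 with the percentile taken over all probes. Hoxa7 lay at -4.18 and -5.09 in E10.5 females, -3.62 (not detected) and -4.43 in E10.5 males, -5.51 and -6.16 in E13.5 females and -5.38 and -4.66 in E13.5 males. The ranges of the stages overlapped. Its change was -1.10 ± 0.43 (SE), adjusted p = 0.0522 by limma, and it was the 1 member with an unadjusted p under 0.05. It passed the threshold when the replicate number, slide or scan day was a block and with 3 of the other scalings. On scan day 1 the change was -1.55 and on scan day 2 it was -0.66. Without E10.5 female replicate 2, Hoxa7 and Hoxb2 were called lower, without E10.5 male replicate 2 Hoxa7, and without E10.5 male replicate 1 Hoxc6.

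Between E13.5 and E17.5, 9 of the 11 members tested rose and 0 fell, over both sexes. Of all 16850 genes tested, 30.3% were higher and 15.5% lower, with a median change of 0.32. Of the 11 members, 8 passed the detection filter through E17.5 arrays alone, the stage at which they were high, so the filter favours rises and their number is no support for one. With the percentile over all probes, 3089 genes were higher and 3964 lower, against 5111 and 2609, and 5 members rose. Hoxa4, a retinoid-responsive anterior member, was not detected on any E13.5 array (-8.60 and -8.62 in females, -8.86 and -5.76 in males). At E17.5 it lay at -3.91 and -3.40 in females and -4.07 and -4.27 in males. All 4 E17.5 arrays were above all 4 E13.5 arrays. Between the stage means, with E13.5 set at its detection limits, the rise was at least 6.3-fold (limma, adjusted p = 0.000186). Hoxd8, the central Hoxd member whose promoter is printed above, lay at -6.02 and -6.14 in E13.5 females and, not detected, at -8.55 and -6.92 in E13.5 males. At E17.5 it lay at -3.77 and -3.00 in females and -5.68 and -4.55 in males. The stages did not overlap, as for 3 of the 11 members tested and 18.7% of all genes tested. Hoxd8 passed as higher at E17.5 (limma, adjusted p = 0.000295). With both E13.5 male arrays undetected, its fitted change of 2.66 ± 0.47 is not a measured size.

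Of the other members that rose, Hoxb7, Hoxb2 and Hoxb1 were detected in E17.5 males and not in E17.5 females. Hoxb7, which is best known from kidney collecting duct, was undetected on all E13.5 arrays (-8.84 and -10.21 in females, -9.03 and -7.26 in males). It stayed undetected in E17.5 females (-8.13 and -9.24) and was detected in E17.5 males (-3.76 and -3.37). Over the mean of both sexes it passed the test with an adjusted p of 0.0046 by limma. Hoxc9, a posterior thoracic member, lay between -6.86 and -6.38 at E13.5, at -6.61 and -5.67 in E17.5 females and at -2.56 and -2.53 in E17.5 males, a rise of 2.27 ± 0.43 (limma, adjusted p = 0.000511). Hoxa7 rose by 2.03 ± 0.44 (adjusted p = 0.00145), with the female arrays at -4.95 and -4.55 and the male arrays at -2.14 and -1.95. Hoxb2 and Hoxb1 passed with adjusted p of 0.0179 and 0.0418 by limma, each undetected at E13.5 and in E17.5 females. With 1 sex undetected at E17.5, no size or bound is given for the rise of Hoxb7, Hoxb2 or Hoxb1 over both sexes. Hoxc6 rose by 1.99 ± 0.68 and Hoxc13 by 1.05 ± 0.37 (limma, adjusted p = 0.0245 and 0.0275). Hoxc9 and Hoxc6 were each detected on 3 of 4 E17.5 arrays and 1 of 4 E13.5 arrays, so that their sizes rest partly on undetected arrays. The 2 members tested without a call were Hoxa10 and Hoxb13. With scan day as a fixed block, and also without E17.5 male replicate 2, the members that passed were 5, namely Hoxa4, Hoxa7, Hoxb7, Hoxc9 and Hoxd8. Markers of somatic cells also rose over this interval, namely 3 of 3 blood and endothelium markers tested, 6 of 14 stroma markers and 5 of 10 Sertoli markers, beside 30.3% of all genes, and their part in the Hox changes was not tested.

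At E13.5, none of the 3 members tested differed between the sexes by the test (limma), beside 7.28% of all 13782 genes higher and 12.2% lower in males. The 1003 higher and 1677 lower genes became 96 and 1268 in the deposited value table. At an unadjusted p under 0.05 there was 1 member, Hoxd8, which was detected on both female arrays and on neither male array, with the values given above (adjusted p = 0.0882). Its female signal was the higher on both scan days, and with the male side undetected no size is given. Hoxd8 passed in the deposited value table, with quantile normalization and with slide as a random block. Without E13.5 male replicate 1, Hoxa9, Hoxa13 and Hoxd12 were called higher in males.

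At E17.5 more members were called. Of 11 members tested, 5 were higher in males (Hoxb7, Hoxb1, Hoxc9, Hoxb2 and Hoxa7) and 1 was lower (Hoxd8), beside 32.1% higher and 22.7% lower of all 16124 genes tested. Of the 11 members, 7 passed the detection filter through male arrays alone and 0 through female arrays alone, so the filter favours members higher in males. The median difference over all genes tested was 0.27 and lay between -0.46 and 0.27 over the scalings. With the percentile over all probes, 4067 genes were higher and 4594 lower, against 5182 and 3654, and the same 6 members passed. Hoxb1, which patterns the hindbrain and maintains its own expression through a Hox and Pbx site, lay at -4.16 and -4.12 in males and, undetected, at -8.18 and -9.29 in females, so that males exceeded females at least 4.93-fold (adjusted p = 0.00164 by limma). At this stage it was thus detected in males alone.

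Hoxb7, Hoxb2, Hoxc9 and Hoxa7 were also higher in males. For Hoxb7, with array values given above, males exceeded females at least 7.33-fold (limma, adjusted p = 0.000359). Hoxb2, another anterior member, lay at -3.87 and -3.15 in males and, undetected, at -6.76 and -7.19 in females, at least 7.6-fold higher in males (adjusted p = 0.00473). Hoxc9 was higher in males by 3.59 ± 0.61 (adjusted p = 0.000129), with 1 of the 2 female arrays detected. Hoxa7, detected on all 4 arrays, was higher by 2.70 ± 0.62 (adjusted p = 0.00169). Male and female arrays did not overlap for any of these 4 or for Hoxb1, as was the case for 10 of the 11 members tested and for 78.6% of all genes tested. Hoxd8, detected on all 4 arrays, was lower in males by -1.73 ± 0.67 (limma, adjusted p = 0.0386), and its call was kept in 1 of 4 fits with an array left out (without E17.5 male replicate 2) and lost with scan day as a block. Hoxa4 lay between -4.27 and -3.40 over both sexes, and its difference of -0.52 ± 0.97 did not pass the test.

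**Figure D2:**
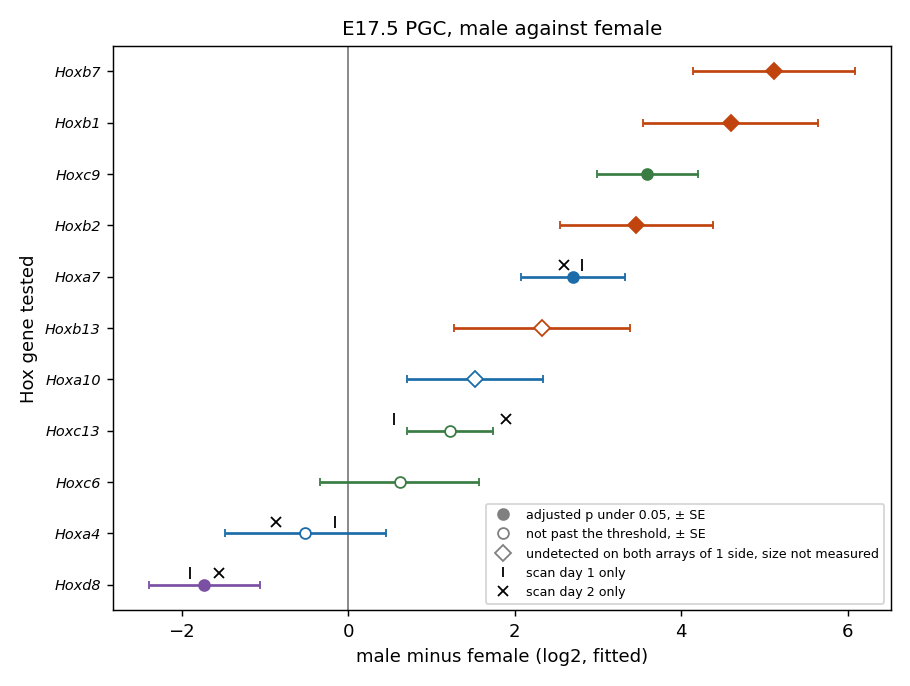
Fitted log2 difference, E17.5 males minus females, for the 11 Hox genes tested, with SE bars (limma, 2 arrays a sex); filled symbols passed adjusted p under 0.05, colours mark the clusters, and small marks give the difference within each scan day for members detected on all 4 arrays. Of the 5 filled symbols to the right of 0, Hoxa7 lies at 2.70 and Hoxc9 at 3.59, and the filled symbol to the left is Hoxd8 at -1.73; diamonds mark members undetected in females, whose position is no measured size and for which the text gives a lower bound where they passed.

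The 5 members higher in males were called in every fit that left out 1 of the 4 arrays. Within scan days, Hoxa7 differed by 2.81 and 2.60 and Hoxd8 by -1.90 and -1.55. For Hoxb7, Hoxb1, Hoxb2 and Hoxc9 the male array gave the higher signal on both days, with 0 or 1 female array detected. Sertoli and pregranulosa markers moved with the sexes. Of 10 tested, 7 were higher in males and 0 lower, beside the 32.1% and 22.7% of all genes. Of the 12 listed, 10 were detected on both male arrays and 4 on both female arrays, so the filter favours markers higher in males. Sox9, for example, lay at -0.91 and -1.42 in males and was undetected in females, and Cst9 lay at 1.20 and -0.02 in males and was undetected in females. The summed Sertoli level was 8.52 in male replicate 1 and 4.26 in male replicate 2, and 1.36 and 1.21 in spermatogonia. The part of somatic cells in the sex difference was not tested.

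The change from E13.5 to E17.5 itself differed between the sexes for 2 of the 11 members, beside 19.2% of all 16850 genes with a larger change in males and 13.2% with a smaller one. The split over all genes was 3237 to 2220, and 1612 to 231 in the deposited value table. Hoxc9 (limma interaction, adjusted p = 0.00379) and Hoxb7 (adjusted p = 0.0471) changed more in males. Among the groups compared, both members were detected on both arrays of E17.5 males alone. They entered the test only through the group where they were high, so the filter favours a larger change in males. Of the 8 arrays, 6 did not detect Hoxb7 and 4 did not detect Hoxc9, so that the size of neither difference was measured. Hoxc9 was called in 8 of 8 fits that left out an array. Hoxb7 was called in 2 of 8 (without E13.5 female replicate 2 or E13.5 male replicate 2), and it was lost with slide or scan day as a fixed block, without a filter, and where all probes set the percentile. Without E13.5 male replicate 1, 5 members passed, with Hoxa9, Hoxa13 and Hoxd12 changing less in males and Hoxc9 and Hoxc13 more. Hoxa9, Hoxa13 and Hoxd12 were detected in E13.5 male replicate 2 and on no other PGC array.

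Spermatogonia shared most of their detected Hox genes with E17.5 male PGC. Of the 12 members detected in spermatogonia and the 11 in E17.5 males, 10 were shared (83.3% and 90.9%). Over all genes, 15192 were detected in spermatogonia, 15258 in E17.5 males and 16583 in at least 1 of them. Most genes of either group were thus shared too, and the overlap is not particular to Hox genes. Hoxa10 was detected on both arrays of the E17.5 males and on 1 of spermatogonia, and Hoxb5 and Hoxc8 were detected on both arrays of spermatogonia and on 0 and 1 array of the E17.5 males. None of 13 members tested was called (limma), beside 8.53% of 16583 genes higher and 11.1% lower in spermatogonia. At an unadjusted p under 0.05 there was 1, Hoxa7, which lay at -3.47 and -3.36 in spermatogonia, a difference of -1.36 ± 0.62 (adjusted p = 0.14). When only these groups were fitted, 4 members passed (Hoxa7, Hoxb1, Hoxb2 and Hoxb5), and over all genes 1415 higher and 1835 lower became 1847 and 1027 with the percentile over all probes. Age, strain, slide and cell type all changed between these groups and cannot be told apart.

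Oogonia had the 4 members of E17.5 female PGC (Hoxa4, Hoxa7, Hoxc13 and Hoxd8) and also Hoxc6 and Hoxc9. Over all genes, 12184 were detected in E17.5 females, 16956 in oogonia and 17027 in at least 1 of them. Nearly all genes of the E17.5 females were thus detected in oogonia too. Hoxa4 lay at -3.96 and -4.02 and Hoxd8 at -4.14 and -4.14 in oogonia. None of 6 members tested was called (limma), beside 6.87% higher and 15.7% lower of 17027 genes. Hoxc13 had an unadjusted p under 0.05, at -6.80 and -7.03 in oogonia against -5.48 and -5.99 in E17.5 females (-1.18 ± 0.52, adjusted p = 0.113). Over all genes 1169 higher and 2671 lower became 300 and 19 in the deposited value table. Hoxa4 and Hoxd8 were the Hox genes other than Hoxa7 and Hoxc13 that were detected on both arrays of E17.5 females, E17.5 males, oogonia and spermatogonia alike. The anterior Hoxb1 and Hoxb2, the central Hoxb7 and the posterior Hoxb13, in contrast, were detected on both arrays of E17.5 males and of spermatogonia. None of these Hoxb members was detected on both arrays of E17.5 females or of oogonia.

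In EG cells, 3 of 9 members tested were lower than in E10.5 and E13.5 PGC and 0 were higher, beside 25.2% lower and 19.7% higher of 22061 genes. Over all genes 4357 higher and 5569 lower became 6574 and 1241 in the deposited value table. Hoxc9 lay at -6.87 and -9.02 in EG females and -6.97 and -6.94 in EG males, against -7.26 to -5.03 over the 8 PGC arrays, of which 3 detected it, a difference of -1.24 ± 0.38 (limma, adjusted p = 0.0134). Hoxa7 lay at -5.44, -6.80, -5.98 and -5.20 in EG cells, against -6.16 to -3.62 in PGC, a difference of -0.97 ± 0.38 (adjusted p = 0.0495). Hoxd8 passed as lower (limma, adjusted p = 6.4e-05), but it was detected on 1 of 4 EG arrays and 2 of 8 PGC arrays, so that its size is not measured. Of the 9 members, 6 passed the detection filter through EG cells alone. Hoxd8 was the 1 member that passed through PGC alone, where it was high, so the filter favours its call as lower. With values below the highest detection limit raised to that limit, no member was called. With quantile normalization, Hoxb1 and Hoxb7 were called higher and Hoxc9 and Hoxd8 lower. In the deposited value table only Hoxd8 was called, lower. Without EG female replicate 2, 1 member (Hoxd8) passed, without EG female replicate 1 or E10.5 male replicate 2 there were 5, and without E13.5 male replicate 1 there were 7. With the EG arrays on a slide of their own, slide and cell type cannot be told apart.

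EG and ES cells differed for 1 of 17 members. Hoxa11, known from limb and uterus development, was undetected on all 4 EG arrays (-11.41 to -10.66) and detected on both arrays of female ES cells (-6.41 and -6.98), with the male ES line undetected (-9.66 and -9.78). It was called lower in EG cells (limma, adjusted p = 0.0175), with no size, since 1 of the ES lines was undetected. Of the 17 members, 9 passed the detection filter through ES cells alone. Hoxa11 was among them, entering through female ES cells where it was high, so the filter favours its call as lower. Beside this call, 4.8% of 23225 genes were higher and 2.26% lower in EG cells. Those 1115 and 524 genes stood against 490 and 514 in the deposited value table. The call was kept in 2 of 8 fits with an array left out (EG female replicate 1 and female ES replicate 2) and was lost with quantile normalization and with slide as a random block.

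The ES lines, which differ in sex, strain and derivation, differed in how many members were detected. The female line had 17 members on both arrays (17 on replicate 1 and 27 on replicate 2), and the male line had 1, Hoxa7 (10 on replicate 1 and 2 on replicate 2). The lowest detected signal was -9.70 and -10.24 on the female arrays and -9.07 and -7.81 on the male arrays. A level detected in the female line could thus be missed in male replicate 2, so the counts are no measure of a difference in level. All genes showed less of a gap, 55.6% against 41.4%. In the test, 1 of 17 members was lower in the male line and 0 were higher, beside 2.8% and 2.1% of 21695 genes. Hoxa10, a posterior member also known from the uterus, lay at -6.28 and -7.54 in the female line and, undetected, at -10.85 and -9.69 in the male line, at least 2.89-fold lower (limma, adjusted p = 0.0264). That call was lost in every fit that left out 1 of the 4 arrays. At an unadjusted p under 0.05 the count was 4. Of the 17 members, 16 passed the detection filter through the female line alone, so the filter favours members lower in the male line. Fibroblast and stroma markers summed to 4.89 and 3.69 in the female line and to 1.42 and 1.35 in the male line, and their part was not tested. Over all genes 455 higher and 608 lower became 455 and 410 with the percentile over all probes.

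GS cells had more Hox genes detected than any other group, and the 2 GS arrays differed from each other by cluster. All 12 members detected in spermatogonia were detected in GS cells, and 15 more. Over all genes, 15192 were detected in spermatogonia, 25698 in GS cells and 26021 in at least 1 of them. Nearly all genes detected in spermatogonia were thus detected in GS cells too. Among the 27 members detected on both GS arrays, all 9 Hoxb members were higher in replicate 2, by 1.68 to 3.48 (median 2.48). All 8 Hoxa members were higher in replicate 1 (median difference -1.54, range -2.28 to -0.44), as were all 4 Hoxd members (median -1.90, range -2.17 to -1.59). The 6 Hoxc members were split, 3 each way. Over all 25698 genes detected on both arrays, the median difference was -0.11. Hoxb5, a central member, lay at -4.86 in replicate 1 and -2.27 in replicate 2, Hoxb6 at -4.16 and -1.68, and Hoxb13, a posterior member known from prostate, at -5.62 and -2.33. Hoxa10 lay at -3.99 and -6.27, Hoxc8 at -4.96 and -7.47 and Hoxd4 at -5.71 and -7.84.

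**Figure D3:**
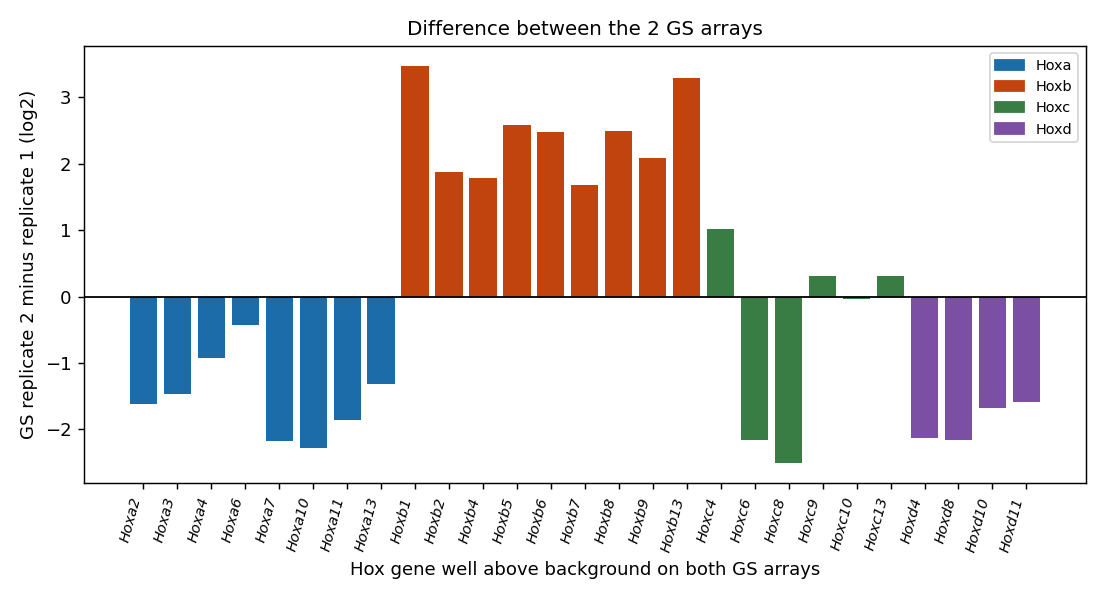
Bars give, for each of the 27 Hox genes detected on both GS arrays, the level on replicate 2 minus that on replicate 1 (log2), coloured by cluster; there is 1 array per replicate and no error. All 9 Hoxb bars point up, and all 8 Hoxa and 4 Hoxd bars point down.

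Other markers also separated the GS arrays. Of the 17 fibroblast and stroma markers detected on both, 15 were higher in replicate 1, with a median difference of -2.34. Dcn lay at 2.72 in replicate 1 and -2.81 in replicate 2, and Col3a1 at 1.82 and -2.84. Of the 9 germ cell markers, 8 were higher in replicate 2 (median 0.76), as were 6 of 6 spermatogonial stem cell markers (median 0.36). Hoxa and Hoxd members thus lay on the side of the fibroblast markers and Hoxb members on the side of the germ cell markers. A share of RNA from another cell type was not tested as a source of either.

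Against spermatogonia, GS cells had 1 of 27 members higher and 2 lower, beside 12% higher and 13.5% lower of 26021 genes. Hoxb6 was detected on 1 of 2 spermatogonia arrays (-6.58 and -5.77, the second detected) and was higher in GS cells by 3.25 ± 1.09 (limma, adjusted p = 0.0376). Hoxa4 lay at -6.85 and -7.77 in GS cells and -4.64 and -4.17 in spermatogonia (-2.91 ± 0.98, adjusted p = 0.0385). Hoxc13 lay at -6.68 and -6.37 in GS cells and -4.54 and -4.83 in spermatogonia (-1.84 ± 0.53, adjusted p = 0.0176). The arrays of the groups did not overlap for these 3, as for 10 of the 27 members tested and 66.9% of all genes tested. Of the 27 members, 15 passed the detection filter through GS cells alone. Hoxb6 was among them, and GS cells were the group where it was high, so the filter favours its call as higher. The calls rested on all 4 arrays: without either spermatogonia array 0 members passed, without GS replicate 1 only Hoxb6 did, and without GS replicate 2 Hoxa11 and Hoxc13 did. With slide as a random block 0 passed. GS cells and spermatogonia were on different slides, and slide and group cannot be told apart.

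Testis and spermatogonia differed for 7 Hox genes. Of 21 members tested, 2 were higher in testis (Hoxd8 and Hoxa4) and 5 lower (Hoxb13, Hoxb7, Hoxc13, Hoxb1 and Hoxc8), beside 25.3% higher and 19.6% lower of 28811 genes. Of the 21 members, 9 passed the detection filter through testis alone. Hoxb13 was the 1 member that passed through spermatogonia alone, where it was high, so the filter favours its call as lower. Testis and spermatogonia were on different slides and scan days, and slide and group cannot be told apart. Over all genes 7282 higher and 5635 lower became 5365 and 7605 with the percentile over all probes. Hoxd8 lay at -0.90 and -1.09 in testis and -5.05 and -5.33 in spermatogonia, a rise of 4.20 ± 0.68 (limma, adjusted p = 9.6e-05). Hoxa4 lay at -0.52 and -0.43 in testis and -4.64 and -4.17 in spermatogonia, a rise of 3.93 ± 0.98 (adjusted p = 0.00353). Testis was the group with the highest level for both, with a step of 3.18 for Hoxa4 and 2.39 for Hoxd8 down to the next group, E17.5 females in each case. Hoxa4 is known to be expressed in meiotic and later male germ cells. All 7 spermatocyte and spermatid markers tested were higher in testis, beside 25.3% of all genes, with a median difference of 8.43.

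Of the 5 members lower in testis, 3 were Hoxb genes. Hoxb13 was undetected in testis (-12.24 and -11.72) and lay at -5.97 and -5.45 in spermatogonia, at least 21.1-fold lower (limma, adjusted p = 0.000152). Hoxb7 lay at -8.32 and -8.97 in testis and -3.58 and -3.54 in spermatogonia (-5.09 ± 0.99, adjusted p = 0.000471). The arrays of testis and spermatogonia did not overlap for any of the 7, as for 16 of the 21 members tested and 85.9% of all genes tested. Hoxc13 (-3.64 ± 0.53), Hoxb1 (-3.43 ± 1.07) and Hoxc8 (-2.43 ± 0.92) were lower with adjusted p of 3.4e-05, 0.0147 and 0.0413 by limma. Hoxc8 was lost in all 4 fits with an array left out and Hoxb1 in 2 of 4, and the other 5 were kept in 4 of 4. Hoxc9 lay at -3.04 and -2.72 in testis and -2.19 and -2.51 in spermatogonia and was not called. Sertoli markers summed to 10.4 and 9.86 in testis, and the cell types behind these levels were not tested.

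**Figure D4:**
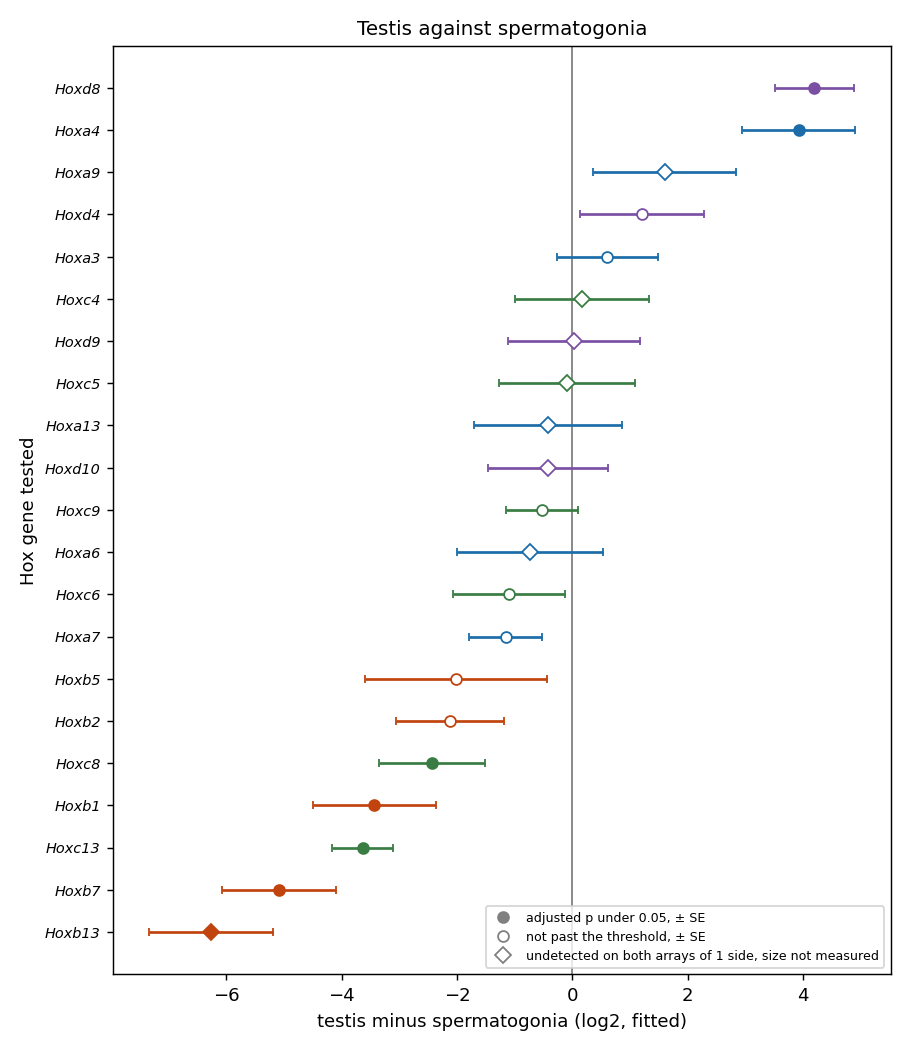
Fitted log2 difference, testis minus spermatogonia, for the 21 Hox genes tested, with SE bars (limma, 2 arrays a group); filled symbols passed adjusted p under 0.05, colours mark the clusters and diamonds mark members undetected on 1 side. Hoxd8 (4.20) and Hoxa4 (3.93) are the 2 filled symbols above 0, and the 5 filled symbols below 0 lie between -6.27 and -2.43; Hoxb13 was undetected in testis, and its point is no measured size.

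Set side by side over all groups, the members fell into different profiles. Hoxa4 was highest in testis, then E17.5 females (-3.66 ± 0.36, SD, n = 2), oogonia (-3.99 ± 0.05), E17.5 males (-4.17 ± 0.14), spermatogonia (-4.40 ± 0.33) and GS cells (-7.31 ± 0.65), and it was undetected in the other groups. E17.5 males and spermatogonia overlapped in this order. Hoxc9 was highest in spermatogonia (-2.35 ± 0.22), E17.5 males (-2.54 ± 0.02), testis (-2.88 ± 0.23) and GS cells (-3.52 ± 0.21), and then dropped by 2.66 to oogonia (-6.18 ± 0.15). Hoxb1 was highest in E17.5 males (-4.14 ± 0.03), GS cells (-5.03 ± 2.46) and spermatogonia (-5.15 ± 0.23), with the GS range overlapping both, and then dropped by 2.80 to EG males (-7.94 ± 0.15). Testis (-8.58 ± 0.47), EG females (-8.66 ± 0.18) and female ES cells (-8.93 ± 0.28) followed and overlapped from each to the next. Hoxb7 was highest in GS cells (-1.61 ± 1.19), then spermatogonia (-3.56 ± 0.02) and E17.5 males (-3.57 ± 0.27), which overlapped, and lay 3.80 lower in the next group, female ES cells (-7.36 ± 0.79). For Hoxa7 nearly all neighbouring groups in the order overlapped (spermatogonia and testis were the exception), from -2.05 ± 0.13 in E17.5 males to -6.12 ± 0.96 in EG females. These orders describe the arrays and were not tested.

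**Figure D5:**
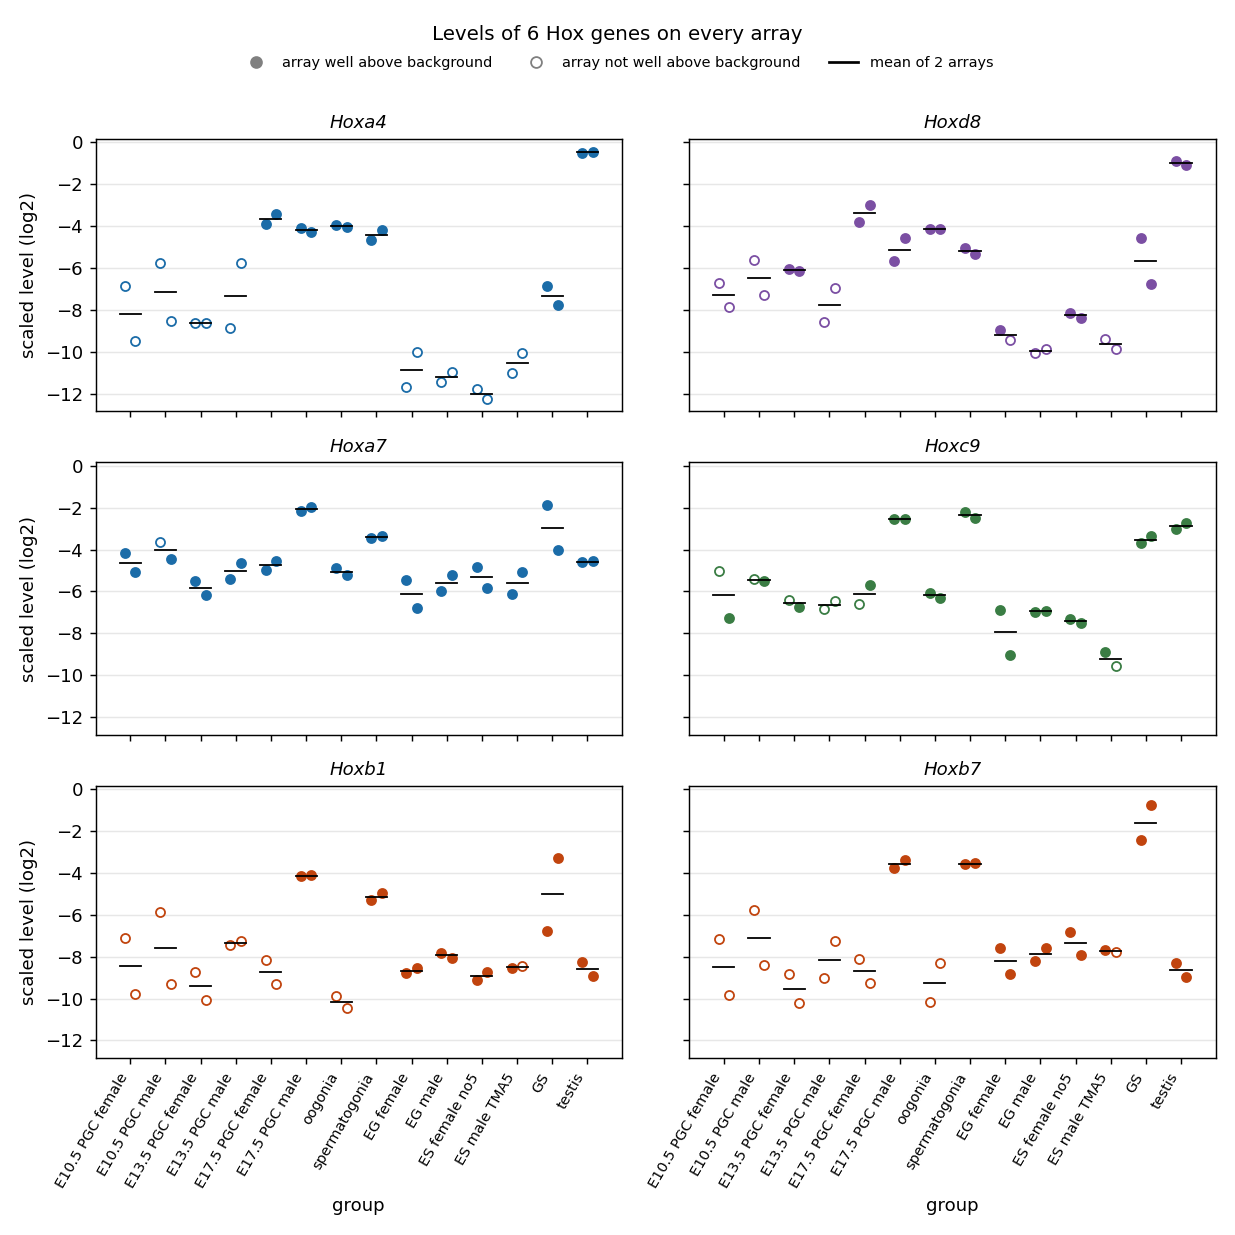
Scaled level (log2, 0 is the 75th percentile of commonly detected probes) of 6 Hox genes on every array by group; filled points are arrays well above background, open points are not, and lines are means of 2 arrays. Hoxa4 and Hoxd8 peak in testis at -0.52 and -0.43 and at -0.90 and -1.09, while Hoxb1 and Hoxb7 are higher in E17.5 males and spermatogonia than in testis.

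The TALE cofactors of Hox proteins were followed as a list of 6. As for the members, where a gene passed the detection filter through 1 side alone, the filter favours a call towards that side. The lists below are read against all genes tested, whose median difference was 0.27 between the E17.5 sexes, 0.32 from E13.5 to E17.5, 0.02 for GS cells and 0.20 for testis against spermatogonia and -0.19 for EG cells against PGC. Of 5 TALE cofactors tested at E17.5, 3 were higher in males and 1 lower, with a median of 1.82 (32.1% and 22.7% of all genes). Pbx2 was higher by 2.56 ± 0.45 (limma, adjusted p = 0.000166) and was detected in both sexes. From E13.5 to E17.5, 3 of 5 rose and 0 fell (median 0.92; 30.3% and 15.5% of all genes), with Pbx4 rising by 1.35 ± 0.27 (adjusted p = 0.000837). In GS cells against spermatogonia, 4 of 5 were lower and 0 higher (median -1.81; 13.5% and 12% of all genes), Pbx4 by -2.58 ± 0.40 (adjusted p = 0.000226). In testis, 3 were lower and 2 higher (median -1.54; 19.6% and 25.3% of all genes), Meis2 by -5.65 ± 0.62 (limma, adjusted p = 1.8e-06).

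Of 12 tested genes known to activate the clusters, 8 were higher in E17.5 males and 1 lower (median 2.90), beside 32.1% and 22.7% of all genes. Of the 17 listed, 12 were detected on both arrays of E17.5 males and 4 on both of E17.5 females. The filter thus favours genes higher in males. T, Wnt3a, Wnt5a and Rarb, all called higher, were undetected on both female arrays, so the median is no measured size. Fgf8, a growth factor of the early embryo that was detected on 1 of 2 female arrays, was higher by 5.62 ± 0.52 (limma, adjusted p = 3.5e-07). Over both sexes from E13.5 to E17.5, where 30.3% of all genes rose and 15.5% fell, 1 of 14 rose (Kmt2b, a Trithorax-type methyltransferase, by 0.98 ± 0.20, adjusted p = 0.000816) and 1 fell (Cdx2, undetected at E17.5, adjusted p = 0.00347). Of 14 tested, 8 were lower and 1 higher in testis than in spermatogonia (median -1.85), beside 19.6% and 25.3% of all genes. In GS cells 5 were lower and 1 higher (median -0.66), beside 13.5% and 12%. Rarb, a retinoic acid receptor, was lower in GS cells by -4.83 ± 0.82 (limma, adjusted p = 0.000512).

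Among repressors and related genes, Polycomb subunits moved both ways. From E13.5 to E17.5, 10 of 22 fell and 6 rose (median -0.28), beside 15.5% and 30.3% of all genes. Prdm14, a germ cell and pluripotency regulator, passed as lower (limma, adjusted p = 2.5e-07). It was detected on 2 of 4 E17.5 arrays and on neither female array. Its fitted fall of 4.42 ± 0.38 is thus not a measured size. Dnmt3a, a DNA methyltransferase, rose by 2.34 ± 0.24 (limma, adjusted p = 1.8e-06). At E17.5, 8 of 22 were higher in males and 4 lower (median 0.51), beside 32.1% and 22.7%. Cyp26b1, which degrades retinoic acid, lay at -2.28 and -2.65 in males and was undetected in females (limma, adjusted p = 0.00106). In testis, 11 of 24 were lower than in spermatogonia and 2 higher (median -1.01), beside 19.6% and 25.3%, and in GS cells 4 were lower and 2 higher (median -0.20), beside 13.5% and 12%. In EG cells against PGC, 11 of 23 were lower and 5 higher (median -0.45), beside 25.2% and 19.7%.

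Genes beside the clusters and homeobox genes elsewhere gave mixed counts. Of genes beside the clusters, 5 of 11 were higher and 4 lower in E17.5 males (median 0.66), beside 32.1% and 22.7% of all genes, and 3 of 12 rose and 6 fell from E13.5 to E17.5 (median -0.37), beside 30.3% and 15.5%. Evx1, next to Hoxa13 and detected on 1 of 4 E17.5 arrays, fell by 2.32 ± 0.63 (limma, adjusted p = 0.00734), and Skap1, beside Hoxb1, rose by 2.46 ± 0.46 (adjusted p = 0.000418). In testis 2 of 13 were higher and 2 lower (25.3% and 19.6% of all genes), with Ttll6, near Hoxb13, higher by 6.42 ± 1.00 (adjusted p = 6.1e-05). Of homeobox genes outside the clusters, 4 of 6 were higher in E17.5 males (median 1.28), beside 32.1% of all genes. In testis 4 of 9 were lower and 1 higher (median -2.05), beside 19.6% and 25.3%. Pax8 was lower in GS cells by -3.70 ± 0.48 (limma, adjusted p = 4.8e-05), and En1 was undetected in E17.5 females and in testis.

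Over the 12 comparisons, 14 of the 34 members were called at least once and 20 in none, and the 32 calls went to no member more than 4 times (Hoxb7, Hoxc9 and Hoxd8). By position, 3 of 9 anterior, 6 of 10 central and 5 of 15 posterior members were called. Comparisons that share arrays (E17.5 males, spermatogonia or E13.5 PGC) are not independent of each other. The 20 members without a call include the 3 that were detected in no group and the 10 that were detected in 1 group and could enter few tests.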

How the data were processed

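Gene expression was measured on 28 one-colour Agilent arrays (Cy3, custom mouse design, build mm9 per the file headers). The authors deposited spot intensities from Feature Extraction 10.5.1.1, per the file headers, and log2 values in a value table, which equalled log2 processed signal minus each array's median to within 0.0025. The main values here are log2(processed signal) minus each array's 75th percentile over 7227 probes well above background on all arrays. Control spots (1417) and 514 non-uniform probes were left out. Of 43803 probes, 16759 matched 13142 symbols of RefSeq GRCm38.p6, used for names, chromosomes and promoters only. The brightest probe stood for a gene.

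Groups were compared with limma 3.58.1 in R 4.3.3 (14 group means, 14 residual degrees of freedom, two-sided, Benjamini-Hochberg adjusted p under 0.05 over all genes tested). A gene was tested where both arrays of at least 1 compared group were well above background. A bound was given only where every array of the bright side was well above background. For it, each array of the undetected side took its lowest well-above-background signal, or the probe's own value if that was higher, and the mean of these was set against the bright group's mean. The fit was tested on simulated data. Slides numbered 9 and scan days 6. Within PGC, replicate 1 was scanned on day 1 and replicate 2 on day 2. Same-numbered PGC samples correlated in their deviations at a median of 0.21 (lowest -0.27, 12 of 15 pairs over 0.1), and the numbers were not taken as pairs.

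All members described were named, and 1 other gene that meets the rule and 1 cofactor are not reported here; per comparison, called members are named by size, with array values for the largest, and other genes come only from listed cofactors, regulators, neighbours and markers. The members and lists were chosen with earlier results of these data known. Alternatives were other scalings, normexp (offset 50, on the median signal column, as a mean signal column was not used here) with quantile normalization, filters, blocks and leaving out each array. The number of arrays limits the precision.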

Additional observations from a re-analysis of the deposited data

Results flagged for a closer look

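For 2 members the change from E13.5 to E17.5 differed between male and female PGC by a test of the difference itself (limma interaction term, 2 arrays per sex and stage). The change in males minus that in females was 3.74 ± 1.38 (log2, SE) for Hoxb7 and 3.68 ± 0.86 for Hoxc9, with adjusted p of 0.0471 and 0.00379. Hoxc9 was called in 8 of 8 fits that left out an array and Hoxb7 in 2 of 8. Of the 8 arrays, 6 were not well above background for Hoxb7 and 4 for Hoxc9, so that neither fitted value is a measured size. Both members passed the detection filter through E17.5 males alone, where they were high, so the filter favours this outcome.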

How the results depend on the processing

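Over the settings listed here, blocks and left-out arrays included, no change of a member called in the main setting turned its sign. The E17.5 sex comparison kept 5 to 8 calls under every setting. Counts of called members moved by over 1.5 times as follows, and the cause was not tested. With the percentile over all probes, E13.5 against E10.5 gave 1, E17.5 against E13.5 gave 5, the interaction gave 1, and 3 members were highest in spermatogonia. The deposited value table gave 1 for the E13.5 sexes, 1 for EG against PGC and 2 for EG against ES. Members highest in spermatogonia numbered 2 in that table and under both quantile settings. Quantile normalization gave 1 for E13.5 against E10.5, 1 for the E13.5 sexes, 4 for the interaction, 0 for EG against ES and 0 for the ES lines. Normexp with quantile gave 1 for E13.5 against E10.5, 6 for the interaction, 1 for spermatogonia against E17.5 males, 0 for EG against PGC, 0 for EG against ES, 0 for the ES lines and 8 for GS against spermatogonia. A floor common to all arrays gave 5 for the interaction, 1 for spermatogonia, 0 for EG against PGC, 0 for EG against ES, 0 for the ES lines and 6 for GS. Without a filter there were 5 for E17.5 against E13.5, 1 for the interaction, 26 for EG against PGC, 0 for the ES lines and 17 for testis. The stricter filter gave 1 for E13.5 against E10.5, 4 for E17.5 against E13.5 and 0 for EG against ES, with fewer members tested. Fits on the compared groups alone gave 4 for the interaction, 4 for spermatogonia, 1 for EG against PGC, 3 for EG against ES, 5 for the ES lines and 13 for testis. With detection on at least 1 of 2 arrays, the counts were 5 and 5 in E10.5 females and males, 7 and 7 at E13.5, 7 in E17.5 females, 11 in oogonia, 12 in EG females, 27 in female and 11 in male ES cells.

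With the replicate block, 1 member passed between E10.5 and E13.5, and no other count of calls moved by over 1.5 times. Scan day as a fixed block gave 1, 5 and 1 for E13.5 against E10.5, E17.5 against E13.5 and the interaction, and slide as a fixed block gave 1 and 5 for the first of these pairs of stages and the second. Slide as a random block (consensus correlation 0.50) gave 1 for E13.5 against E10.5, 1 for the E13.5 sexes, 4 for the interaction, 1 for EG against PGC, 0 for EG against ES, 3 for the ES lines and 0 for GS.

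Leaving out 1 array at a time gave 0 to 2 calls for E13.5 against E10.5, 5 to 8 for E17.5 against E13.5, 0 to 3 for the E13.5 sexes, 5 to 7 for the E17.5 sexes, 1 to 5 for the interaction, 0 to 0 for spermatogonia and for oogonia, 1 to 7 for EG against PGC, 0 to 1 for EG against ES, 0 to 0 for the ES lines, 0 to 2 for GS and 5 to 8 for testis; a lone array is then assumed to vary like the other groups. On 16 of 28 arrays, fewer than 50% of probes were detected, and a member not detected there has only an upper limit.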
